A study of Homo sapiens with 6 samples.

Results

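The RAS, RAF, MEK and scaffold genes considered here are 8 genes of the cascade that runs from RAS through RAF and MEK to the kinase ERK, namely NRAS, NF1, ARAF, BRAF, KSR1, MAP3K8, MAP2K1 and MAP2K2. A gene was taken by every probe set whose gene symbol field named it, alone or among others, and of several the one with the highest mean level was used. Of the 8 genes, 6 had such a probe set, each naming that gene alone, among 19429 features tested in all. NRAS and BRAF were not analysed here.

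The samples were WM164 cells, an established human melanoma line with a mutant BRAF kinase, and all 6 samples are labelled as that line and as BRAF mutant. The 3 samples titled IDTC colony (the letters are not spelled out in the labels) had been kept for 60 days in 500 nM PLX4032, known as vemurafenib, an inhibitor of mutant BRAF, and their descriptions call them treated and resistant. The 3 parent samples were untreated controls, given only the solvent DMSO according to the title of the series. The labels do not say how long parent cells were kept, so time in culture and drug cannot be told apart. A separate Affymetrix whole-transcript array in 1 colour was run for each sample, and precision is limited by how few arrays there are. The samples are described as triplicates extracted separately, without saying whether they were separate cultures, and the p-values therefore cover only the scatter among these arrays, part or all of which may be technical.

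RAS proteins are small GTPases of the inner cell membrane that, when bound to GTP, recruit RAF kinases. RAF phosphorylates the MEK kinases, MEK phosphorylates ERK, and scaffold proteins such as KSR hold RAF and MEK together. In melanoma the cascade is commonly driven by mutant BRAF or mutant NRAS, and its return to activity under a BRAF inhibitor is a well known route of resistance. An expression array reads the amount of RNA of these genes, and not their mutations, splice forms or kinase activity.

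The colonies carried more RNA of KSR1 and NF1 and less of both MEK genes and ARAF than the parent cells. KSR1 was about 2-fold higher, at a fold of 2.02 (95% interval on the log2 scale 0.76 to 1.27). MAP2K1 stood at 0.594 and MAP2K2 at 0.667 of their parent levels, ARAF at 0.839, and NF1 at 1.37. MAP3K8 did not pass the test. Of the 6 genes, 2 rose and 3 fell (limma, Benjamini-Hochberg adjusted p under 0.05, 3 samples a group). Among all features 43.5% were called, 20.8% as higher and 22.7% as lower. Among features above the median level (7.03 on the log2 scale) 67.6% were called, 31.0% as higher and 36.6% as lower. Of the 6 genes, 5 lay above that level by their mean over all arrays. All 5 were called, a count too small to be read as more than that share. KSR1 was among the 5 only through its colony mean of 7.70, since its parent mean of 6.69 lay below that level. Its place in this count is therefore not separate from its rise.

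The 4 genes with the largest differences are shown with the 250 bases before their RefSeq start site (GRCh38.p14, 5′ to 3′ on the gene's strand), so that the stretches in front of the genes that rose together and fell together can be read side by side. Where RefSeq gave several start sites the outermost was used. Capitals mark matches, on either strand, to any of GGGCGG (the GC box of SP1 and KLF factors), CCGGAA (the core of ETS factors, many of them targets of ERK), TGANTCA (AP-1), TGACGTCA (the cAMP response element), CACGTG (the E-box), CATGTG (the core of the M-box bound by MITF) and CCAAT (the NF-Y box). No 2 of these motifs overlapped in the 4 stretches. The KSR1 stretch lies at chr17:27456198-27456447 (plus strand), NF1 at chr17:31094727-31094976 (plus), MAP2K1 at chr15:66386662-66386911 (plus) and MAP2K2 at chr19:4124123-4124372 (minus).
KSR1: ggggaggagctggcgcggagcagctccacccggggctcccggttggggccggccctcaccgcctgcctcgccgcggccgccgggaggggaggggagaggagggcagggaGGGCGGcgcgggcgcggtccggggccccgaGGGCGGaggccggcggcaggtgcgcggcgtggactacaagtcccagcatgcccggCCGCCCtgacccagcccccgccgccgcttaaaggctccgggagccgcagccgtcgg
NF1: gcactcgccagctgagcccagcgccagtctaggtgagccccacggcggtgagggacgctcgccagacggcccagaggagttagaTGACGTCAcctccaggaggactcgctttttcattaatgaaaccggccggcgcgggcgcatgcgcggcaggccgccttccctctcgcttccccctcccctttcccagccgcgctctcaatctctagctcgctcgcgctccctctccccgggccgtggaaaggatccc
MAP2K1: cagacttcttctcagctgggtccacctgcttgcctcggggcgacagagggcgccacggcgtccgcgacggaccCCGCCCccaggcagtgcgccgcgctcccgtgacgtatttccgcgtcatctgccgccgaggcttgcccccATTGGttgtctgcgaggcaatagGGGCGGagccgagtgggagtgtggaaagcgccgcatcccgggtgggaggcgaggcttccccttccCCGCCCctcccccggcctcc
MAP2K2: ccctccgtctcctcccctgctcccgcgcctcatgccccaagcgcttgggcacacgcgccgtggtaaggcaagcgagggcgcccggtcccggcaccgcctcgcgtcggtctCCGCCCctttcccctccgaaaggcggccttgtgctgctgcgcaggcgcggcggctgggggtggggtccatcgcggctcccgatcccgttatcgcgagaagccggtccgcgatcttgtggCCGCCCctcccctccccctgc

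Both genes that fell held GC boxes, 3 in MAP2K1 and 2 in MAP2K2, but so did KSR1, which rose and held 3. GC boxes stood in 42.6% of 35116 such promoter stretches. The NF1 stretch held no GC box and 1 cAMP response element, a motif present in 1.65% of all stretches, beginning 166 bases before the start site. MAP2K1 held 1 CCAAT box, present in 32% of all. None of the 4 stretches held the letters of the ETS, AP-1, E-box or M-box motifs, which were found in 14.5%, 6.57%, 6.34% and 9.42% of all stretches. G and C made up 80.8% of the KSR1 stretch, 67.2% of NF1, 71.2% of MAP2K1 and 74% of MAP2K2, against a median of 58% over all stretches. A match is a description of the letters and shows no binding, and the motifs did not part the genes that rose from those that fell.

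At the level of RAS, NF1 encodes neurofibromin, a GTPase-activating protein that speeds the return of RAS to its inactive, GDP-bound form. Its main probe set (8006239, gene at chr17:31094977-31377675) read 9.78, 9.78 and 9.75 in colonies 1 to 3, against 9.41, 9.21 and 9.31 in parents 1 to 3, all on the log2 scale. All 3 colonies lay above all 3 parents, with a gap of 0.34 between the groups. Groups that did not overlap were common, at 50.7% of all features, 24.5% with the colonies higher and 26.2% with the colonies lower. NF1 rose by 0.46 ± 0.06 (log2 difference ± SE, limma adjusted p = 0.000438). Of the features tested, 2000 rose further.

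NF1 had 2 further probe sets, 8022424 and 8067862, whose values were identical to each other on all 6 arrays. Both read 7.02, 6.91 and 6.84 in colonies, against 6.86, 6.49 and 6.59 in parents. Their groups overlapped, since parent 1 lay above colony 3, and the difference was 0.28 in the same direction as that of the main probe set. NF1 has several near-identical pseudogene copies elsewhere in the genome, so which copies these dimmer probe sets read is uncertain.

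At the level of RAF, ARAF encodes a member of the RAF family that pairs with its relatives and has weaker kinase activity than BRAF. Its probe set (8167165, gene at chrX:47561205-47571908) read 9.21, 9.17 and 9.18 in the colonies, against 9.44, 9.43 and 9.45 in the parents. The 3 arrays of each group stood within 0.05 of each other or closer, and the groups were 0.22 apart. ARAF fell by 0.25 on the log2 scale (SE 0.04, limma adjusted p = 0.00142), the smallest of the 5 differences that passed, and 3684 features fell further. BRAF, the kinase the drug acts on, was not analysed here.

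KSR1, the kinase suppressor of RAS, is a relative of RAF that serves as a scaffold and brings RAF and MEK together at the membrane. Its probe set (8005785, gene at chr17:27456448-27626435) read 7.72, 7.70 and 7.70 in the colonies, against 6.48, 6.95 and 6.64 in the parents. Colonies 2 and 3 had the same deposited value to the last digit, a kind of tie found on all 3 colony arrays for 490 features. The parents were the more scattered group (SD 0.24, against 0.01 in colonies), and still the nearest colony and parent arrays were 0.75 apart. KSR1 rose by 1.01 ± 0.11 (limma adjusted p = 0.000189), and 488 features rose further. Its parent mean of 6.69 lay below the median feature, and the deposited values carry no detection call that would tell it from background.

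MAP3K8, also called COT or TPL2, is a kinase that can phosphorylate MEK without RAF and has been linked to resistance against RAF inhibitors. Its probe set (7926900, gene at chr10:30434021-30461833) read 6.57, 6.70 and 6.40 in the colonies, against 6.11, 6.39 and 6.36 in the parents. The groups did not overlap, but colony 3 and parent 2 were 0.01 apart. The difference of 0.27 ± 0.10 (95% interval 0.03 to 0.51) missed the threshold (limma adjusted p = 0.0676, unadjusted p = 0.0307). It passed with arrays shifted to a common median (adjusted p = 0.0475) and without colony 3 (0.35, adjusted p = 0.0396). Its mean over all arrays, 6.42, lay below the median feature.

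MAP2K1 and MAP2K2 encode MEK1 and MEK2, the closely related kinases that activate ERK and the targets of MEK inhibitors. The MAP2K1 probe set (7984319, gene at chr15:66386912-66491544) read 8.76, 8.82 and 8.85 in the colonies, against 9.51, 9.62 and 9.56 in the parents. The groups were 0.66 apart, with an SD of 0.04 in colonies and 0.05 in parents. MAP2K1 fell by 0.75 on the log2 scale (SE 0.05, limma adjusted p = 1.56e-05), the smallest p of the 6 genes, and 984 features fell further.

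The MAP2K2 probe set (8032761, gene at chr19:4090321-4124122) read 9.15, 9.24 and 9.40 in the colonies, against 9.85, 9.83 and 9.86 in the parents. Here the colonies were the scattered group (SD 0.12, against 0.01 in parents), and colony 3 stood nearest to the parents, still 0.43 below them. MAP2K2 fell by 0.58 on the log2 scale (SE 0.07, limma adjusted p = 0.000252), and 1578 features fell further.

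**Figure D1:**
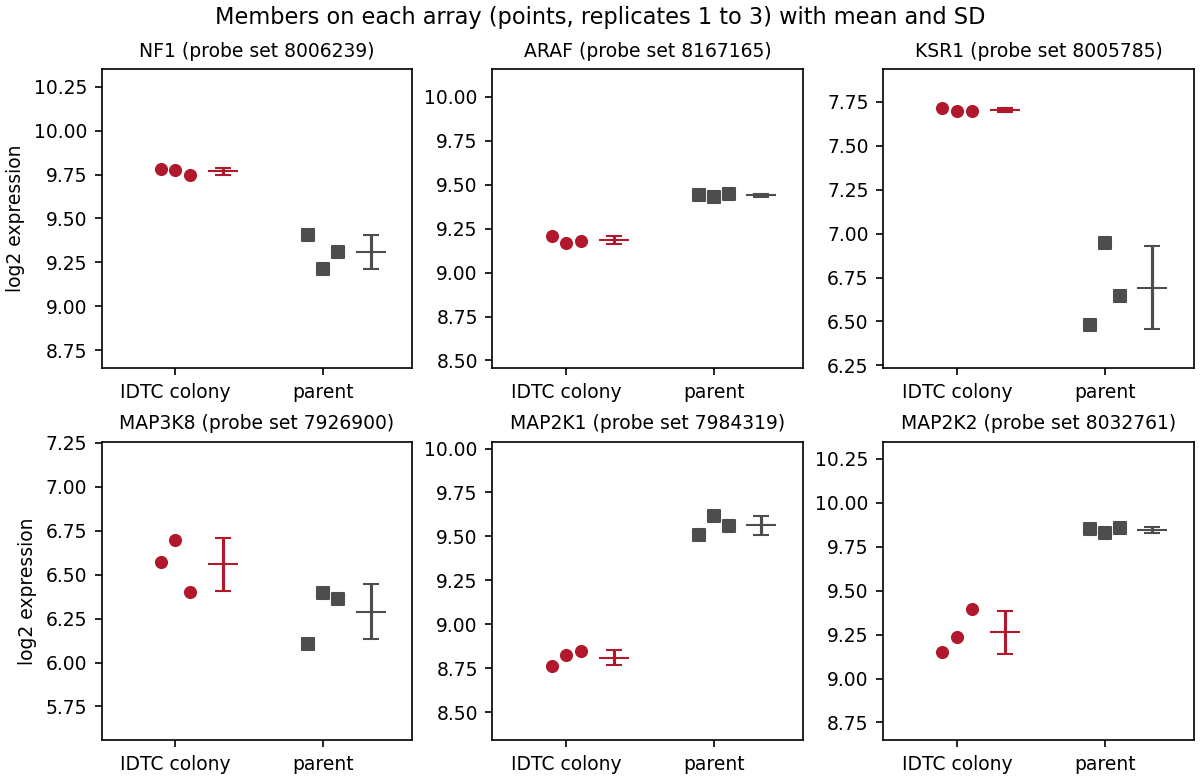
Log2 expression of the 6 genes on each array, with colonies in red on the left and parents in grey on the right of each panel. Points are single arrays (replicates 1 to 3), the bar beside them is the mean and SD, and each panel spans the same height in log2 units. KSR1 and NF1 lie higher in all colonies, MAP2K1, MAP2K2 and ARAF lower, and MAP3K8 nearly meets between colony 3 and parent 2.

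Because both MEK genes fell, their difference on the same array was also compared, which does not depend on the scaling of whole arrays. MAP2K1 minus MAP2K2 was -0.39, -0.42 and -0.55 in the colonies, against -0.34, -0.21 and -0.30 in the parents. All 3 colonies lay below all 3 parents, by a change of -0.17 in the mean, that is, MAP2K1 fell slightly further than MAP2K2. The exact 2-sided permutation test gave p = 0.1, the smallest value this test can give with 3 against 3 samples. This is a change in a difference within arrays, and not a comparison of the levels of the genes.

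The differences of the called genes were then set beside their surroundings on the chromosome, the 50 nearest genes above the median level (25 on each side). KSR1 and NF1 lie 3.47 Mb apart on chromosome 17, with 41 such genes between them. Of those 41 genes, 21 rose and 4 fell, against 31.0% called higher and 36.6% lower of all features above the median level, and their median difference was 0.17. The neighbour median was 0.15 for KSR1 (23 of 50 higher and 9 lower) and 0.16 for NF1 (22 higher and 10 lower), below both genes' own differences. These sets of neighbours share 9 genes, and the 25 neighbours of each gene on the side facing the other are among the 41. The counts and medians for the 41 genes and for both sets are therefore not separate. MAP2K2 had a neighbour median of -0.18, with 7 of 50 neighbours higher and 25 lower. The medians were nearer 0 for MAP2K1 (-0.03, 18 higher and 19 lower), ARAF (-0.05, 11 and 19) and MAP3K8 (-0.08, 16 and 21), although single neighbours of MAP2K1 ran from -1.10 to 1.59. The part that the surroundings have in the difference of a gene was not tested.

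**Figure D2:**
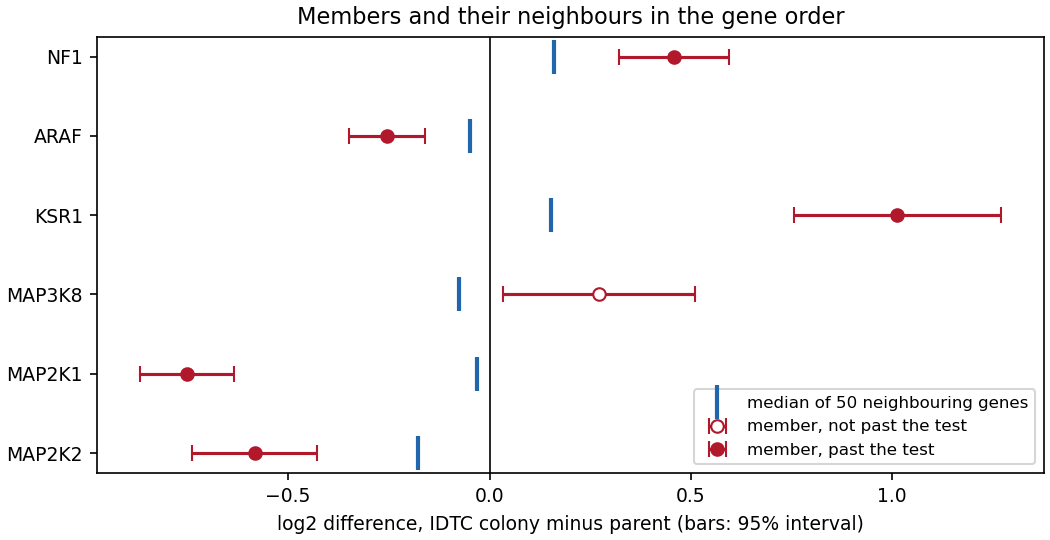
Log2 difference, colony minus parent, of each gene (circle, with 95% interval from limma; open where the test was not passed) and the median difference of its 50 neighbours in the gene order (blue tick). Each of the 5 called genes lies further from 0 than its neighbours' median, in the same direction. A median over 50 genes tends to lie near 0 and the 5 genes had passed a test, so the distance alone does not set them apart.

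Among all features, the 6 genes spread over both sides of a distribution centred on a median of 0.00. None came near the outer values, which ran from -4.77 to 4.62. The median of the 6 was 0.01.

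**Figure D3:**
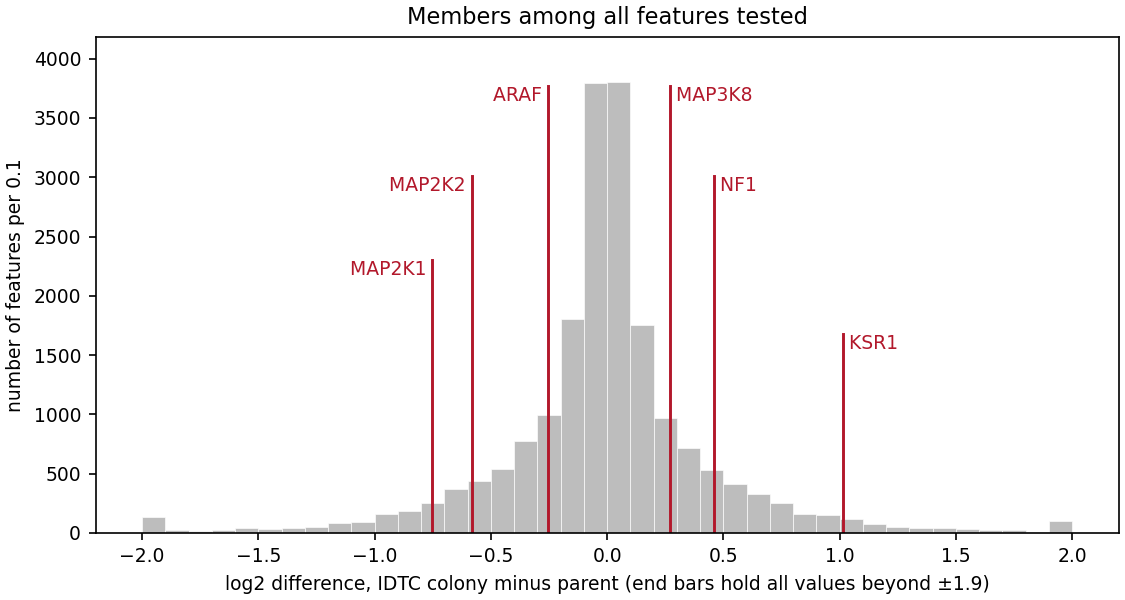
Number of features per 0.1 of log2 difference, colony minus parent, for all 19429 features, with the 6 genes as red lines whose height has no meaning. KSR1 at 1.01 lies furthest to the right and MAP2K1 at -0.75 furthest to the left of the 6.

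Other genes of the same pathway were read from 10 lists that held 107 genes, of which 95 were measured by a probe set of their own. Of the 95, 27 rose, 35 fell and 33 missed the threshold (65.3% called, against 43.5% of all features and 67.6% of those above the median level, where 76 of the 95 lay). Their median difference was -0.05. The counts by list given below stand beside 20.8% higher and 22.7% lower of all features. Above the median level these shares were 31.0% and 36.6%. The other 12 were not analysed here.

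Other than NRAS, which was not analysed here, 4 RAS family GTPases were measured, of which 1 rose and 2 fell. RRAS, a RAS relative linked to integrin function and adhesion, averaged 11.06 ± 0.09 in colonies and 9.52 ± 0.05 in parents (log2, SD, n = 3 each) and rose by 1.54. MRAS averaged 7.09 ± 0.20 in colonies and 8.47 ± 0.10 in parents, and its difference was -1.38 (limma adjusted p = 3.17e-05). MRAS forms with SHOC2 and protein phosphatase 1 a complex that removes an inhibitory phosphate from RAF. HRAS fell by 0.37.

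Of 13 exchange factors and adaptors, which load RAS with GTP or link it to receptors, 6 rose and 2 fell (median 0.14). Of the 13, 7 lay above the median feature. RASGRP1, an exchange factor switched on by diacylglycerol, rose by 0.91, to a colony mean of 6.81 that still lay below the median feature. GAB1, a docking protein of receptor kinases, rose by 0.84. PTPN11, the phosphatase SHP2 that helps receptors activate RAS, fell by 0.48, and the adaptor SHC1 fell by 0.26. Beside NF1, 5 other GTPase-activating proteins of RAS were measured, 3 of them above the median feature. RASA2 had a difference of -0.80 and was the 1 that passed the test, while the other 4 lay between -0.10 and 0.04.

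Of 8 genes for the lipid modification and delivery of RAS, none rose and 4 fell (limma). All 8 lay above the median feature, where 67.6% of features were called, against 50% in this list. Of all features at that level, 36.6% were called lower and 31.0% higher. The largest differences were those of LYPLA2 (-0.63) and LYPLA1 (-0.47), thioesterases known to remove palmitate from proteins. At an unadjusted p under 0.05 there were 0 higher and 4 lower. In the list of the RAF activation complex and RAF inhibitors, 12 of 16 genes fell and 1 rose, with a median of -0.42. This list also held 6 genes for 14-3-3 proteins, which bind phosphorylated RAF, and 3 for the chaperones HSP90 and CDC37. Of these, grouped after their values were seen, 5 and 3 fell, so they supplied most of the falls. Of the 16, 15 lay above the median feature, where 36.6% of features were called lower and 31.0% higher. SHOC2 rose by 0.41, whereas its partner MRAS and the RAF-binding protein gene YWHAG (-0.84) fell.

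Of 10 ERK and substrate kinases, 9 of them above the median feature, 5 rose and 2 fell. MAPK3, which encodes ERK1, averaged 10.38 ± 0.05 in colonies and 9.75 ± 0.02 in parents, and rose by 0.62 (limma adjusted p = 2.64e-05), while the MEK genes directly above it fell. The RSK kinase genes, whose products ERK activates, went both ways, RPS6KA2 rising by 0.77 while RPS6KA3 (-0.66) and RPS6KA1 (-0.63) fell. RPS6KA2 was among the 9 only through its colony mean of 7.70. Its parent mean of 6.93 lay below the median feature, so its place in that count is not separate from its rise.

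Of 10 scaffolds other than KSR1, 6 of them above the median feature, 3 rose and 3 fell, with a median of 0.00. LAMTOR2 rose by 0.25 and PEA15 by 0.17. CNKSR2, a scaffold known mainly from neurons, had a difference of -1.05. Its means of 5.97 in colonies and 7.02 in parents both lay below the median feature. LAMTOR3, also called MP1, which binds MEK1 and ERK1, had a difference of -0.62. KSR2, the relative of KSR1, read 5.47 ± 0.08 in colonies and 5.48 ± 0.05 in parents, well below the median feature, and did not pass the test (-0.01). KSR1 thus had a larger rise than any of the other 10 measured scaffolds, a comparison of fold differences that was not itself tested.

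Of 5 partners of MAP3K8, 1 rose and 1 fell. NFKB1, whose p105 product binds and restrains MAP3K8, fell by 0.66, and IKBKB, whose kinase releases MAP3K8 from p105, rose by 0.60. Of 15 other MAP2K and MAP3K kinases, 11 of them above the median feature, 5 rose and 6 fell. MAP2K6, a kinase that activates p38, rose by 1.85 and had a parent mean below the median feature, and MAP3K3, which acts on the ERK5 and stress kinase arms, rose by 1.67. MAP3K5, a stress kinase also called ASK1, had a difference of -1.32, with a colony mean of 5.76 below the median feature, and MAP3K1 -0.67.

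**Figure D4:**
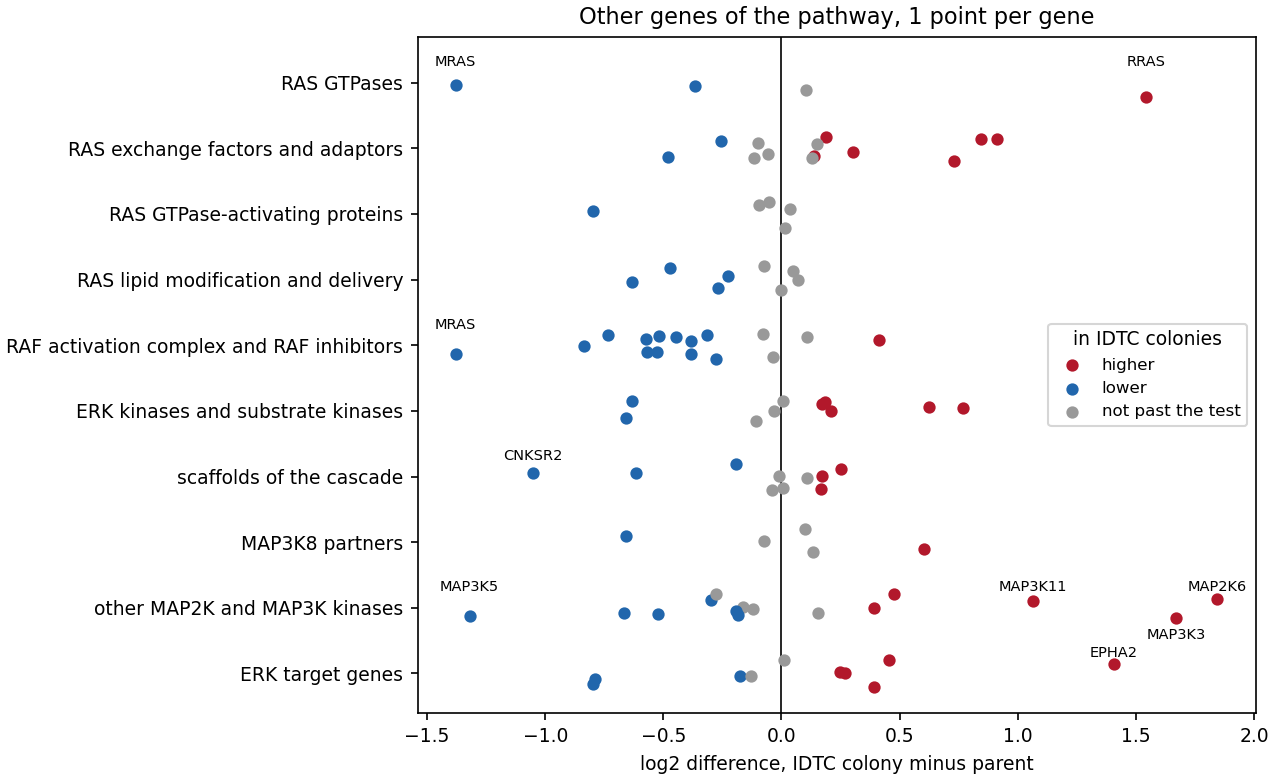
Log2 difference, colony minus parent, of the other measured genes of the pathway in 10 lists (1 point per gene, spread vertically for legibility; red higher, blue lower, grey not past the test). Genes beyond 1 in either direction are named, and MRAS stands in 2 lists. Most points of the RAF activation list lie left of 0.

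Of 10 transcripts known to follow ERK activity in melanoma, 5 were higher and 3 lower. Of the 10, 9 lay above the median feature, where 31.0% of features were called higher and 36.6% lower. Rises and falls were thus mixed among all such features, and not only among these transcripts. EPHA2, a receptor kinase, was among the 9 only through its colony mean of 7.93. Its parent mean of 6.53 lay below the median feature. EPHA2 rose by 1.41, and SPRY2, a feedback inhibitor, by 0.45. Their counterparts SPRY4 (-0.80) and DUSP6 (-0.79), a phosphatase of ERK, fell.

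For each of the 6 genes, the 2 genes above the median level whose 6 values, centred on their mean, lay closest by Euclidean distance were looked up. With 2 groups of 3 arrays such likeness follows mostly the size of the group difference, and no test was made. Closest to NF1 were MMUT (distance 0.0289) and GSK3B (0.0463), and closest to ARAF were TICRR (0.0276) and IMMT (0.0297). For MAP2K1 they were ATP13A1 (0.0529) and COPB2 (0.0632), and for MAP2K2 MMP15 (0.0456) and CCT4 (0.0666). The nearest to KSR1 were VASN (0.192) and NGFR (0.198), NGFR being a receptor that marks neural-crest-like melanoma cells. MAP3K8 was nearest to TMEM9 (0.118) and SCARNA16 (0.126).

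The arrays of one group correlated at 0.997 to 0.998 across features, and arrays of different groups at 0.967 to 0.969. The melanocyte lineage was plain in both groups, with 6 of 7 measured markers above the median feature and a mean level of 10.1 in the colonies and 10.2 in the parents. SOX10, PMEL and S100B rose by 0.42, 0.33 and 0.57, MLANA (-1.45) and TYRP1 (-0.23) fell, and MITF (0.00) and TYR (-0.12) did not pass. TYRP1 was dim, at 4.45 in colonies and 4.69 in parents. Of the markers of other cells, 2 of 7 for fibroblasts, 1 of 6 for keratinocytes, 1 of 6 for leukocytes and 0 of 5 for endothelium lay above the median feature. By limma none of them rose (1, a fibroblast marker, at an unadjusted p under 0.05) and 3 fell, namely the lysosomal macrophage marker CD68 (-1.27, 9.78 in colonies and 11.05 in parents), PDGFRA (-0.57) and LUM (-0.34). The mean level of the leukocyte markers was 6.04 to 6.05 in colonies and 6.21 to 6.29 in parents. That of the fibroblast markers was 6.10 to 6.13 in colonies and 6.16 to 6.23 in parents. Both were lower in all colonies, as was the mean of the melanocyte markers (10.09 to 10.13, against 10.15 to 10.19 in parents). Apart from CD68, the measured leukocyte markers differed by only -0.01 to 0.04. The defining leukocyte gene PTPRC was dim, at 3.71 in colonies and 3.67 in parents. Keratinocyte markers averaged 5.41 to 5.43 in colonies and 5.37 to 5.54 in parents, and endothelial markers 5.11 to 5.14 in colonies and 5.07 to 5.19 in parents. The part of other cells in the differences was not tested.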

How the data were processed

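RNA of 3 IDTC colony and 3 parent samples was isolated on Qiagen RNeasy columns and biotin-labelled with whole-transcript kits, per the labels' protocols. Samples were grouped by title. The deposited values are log2 expression values per probe set, made with Affymetrix Expression Console per the submitters' processing notes. How it was set to correct, summarise and normalize is not given in the sources used here, so scaling of whole arrays was varied. Array medians lay between 6.25 and 6.34. The labels name no batch, and any batch in step with group could not be told apart from group.

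The platform annotation gave 1 symbol for 19460 of 33297 probe sets and several for 1754. Probe sets were reduced to 19429 features, 1 per symbol field (highest mean), with no filter on dim ones. Of the features 1012 name several genes. Symbols were matched by Entrez ID to RefSeq (GRCh38.p14), 19429 of 19460, which also gave positions, gene order and promoter sequences. Colonies were compared with parents by limma (lmFit, eBayes, group as the term, 2-sided), adjusted by Benjamini-Hochberg over all features. Differences are colony minus parent. The procedure was tested on simulated data.

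The members and lists were chosen with earlier results of these data known. The genes named are the members, up to 2 genes with the largest called change in each direction of each list, the 2 closest patterns per member and the melanocyte markers. KSR2, CD68, PDGFRA, LUM, PTPRC and the genes of the closing observations were chosen after their values were seen. Alternatives were other normalizations, features, variance settings, a replicate block and each sample left out. Work used R 4.3.3 with limma 3.58.1, and Python 3.11.15 with numpy 2.4.6 and matplotlib 3.10.9.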

Additional observations from a re-analysis of the deposited data

How the results depend on the processing

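KSR1, NF1, ARAF, MAP2K1 and MAP2K2 kept their direction and stayed past the threshold in all 14 alternatives run, with differences of 0.91 to 1.14 for KSR1, 0.34 to 0.51 for NF1, -0.28 to -0.21 for ARAF, -0.78 to -0.71 for MAP2K1 and -0.65 to -0.53 for MAP2K2. The lowest NF1 value came from averaging its 3 probe sets, 2 of which are identical. In the alternative limited to features above the median level, KSR1 was kept only through its colony values. MAP3K8 kept its direction but passed with arrays shifted to a common median (0.25, adjusted p = 0.0475) and without colony 3 (adjusted p = 0.0396), and with single samples left out it ranged from 0.18 to 0.35 (limma). With only features above the median level it was not among those tested. The cause was not tested.

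With the replicate number as a block, 3820 features were higher and 4115 lower, against 4046 and 4408 without it, and 2 of the 6 genes were higher and 3 lower in both. The deviations of same-numbered samples from their group means correlated at -0.08, -0.06 and -0.01. For differently numbered samples the correlations ran from -0.04 to 0.11. With 3 samples a group this cannot decide whether same-numbered samples belong together. The block changed none of these 6 calls. With single samples left out, 3556 to 4081 features were higher and 3892 to 4697 lower, and MAP2K1 minus MAP2K2 changed by -0.20 to -0.12. The planned differences of BRAF minus ARAF and NRAS minus NF1 were not run. Dim genes have no detection call, which limits what can be said of MAP3K8 and of KSR1 in parents.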

Other observations

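Within the RAF activation list, 3 sets of genes were put together after their values were seen, and are given as counts with no test. Of 6 genes for 14-3-3 proteins, which bind phosphorylated RAF, 5 fell, from YWHAG (-0.84) to YWHAQ (-0.28), and YWHAE (-0.08) did not pass the test (limma). HSP90AA1 (-0.57), HSP90AB1 (-0.52) and CDC37 (-0.57), the chaperone and co-chaperone of RAF kinases, all fell. Of the catalytic subunits of protein phosphatase 1, PPP1CA (-0.45) and PPP1CB (-0.38) fell and PPP1CC (0.11) did not pass. All 12 of these genes lay above the median feature, where 36.6% of features were called lower and 31.0% higher. MAP3K11, which encodes the mixed-lineage kinase MLK3, rose by 1.06, averaging 9.83 ± 0.03 in colonies and 8.77 ± 0.05 in parents (SD, n = 3 each).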
